A study of Mus musculus with 2 samples.

Results

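The transcripts of 9 integrin chains were measured in single CD4 T cells sorted from mouse lungs. The chains were Itgae, Itgb7, Itga4, Itgb1, Itgal, Itgb2, Itga1, Itgav and Itgb3, chosen by name out of the 32285 genes of the count table, and they were read as alpha-beta pairs, by helper-marker class and by host. All donor cells came from WT mice that had inhaled house dust mite (HDM) extract first on day 0 and then over days 7 to 11. Their lung CD4 T cells were taken on day 14, dyed with Cell Trace Violet, which thins with each division, and moved into MARCH1-/- or WT (C57BL/6) hosts. Both kinds of host then received HDM, and donor cells that had diluted the dye were sorted from the lung 4 days after that challenge. MARCH1 is a membrane ubiquitin ligase of antigen-presenting cells that removes MHC class II and CD86 from the surface, and because only the hosts lacked it, the deletion cannot be checked in the sequenced donor cells. Each host type gave 1 library, so no difference below has a replicate check, no test of the host was possible, and every interval is a 95% interval for counting error only. How many animals gave each library is not stated in the labels.

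An integrin is a surface receptor of an alpha and a beta chain that reaches the membrane only as a pair. T cells use them to stop on vessel walls, to enter tissue and to hold on to epithelium and matrix. The beta 7 chain pairs with alpha 4 to bind MAdCAM-1 and VCAM-1 or with alpha E (CD103) to bind E-cadherin on epithelium, beta 1 pairs with alpha 4, alpha 1 and alpha V to bind VCAM-1, collagen and fibronectin, beta 2 pairs with alpha L as LFA-1 to bind ICAM-1, and beta 3 pairs with alpha V to bind vitronectin.

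The barcodes with at least 500 UMIs, at least 250 genes and at most 10% mitochondrial UMIs numbered 156 from MARCH1-/- hosts and 352 from WT hosts, and no cell barcode occurred in both libraries. They held 1575581 UMIs from MARCH1-/- hosts and 2571048 UMIs from WT hosts, with medians of 8017 and 6086.5 UMIs per cell. None of 10 CD4 T cell markers was at 0, and together they gave 4405 CPM (UMIs scaled to a library total of 1000000) in cells from MARCH1-/- hosts and 3854 CPM in cells from WT hosts. All 4 NK cell markers were at 0 in both libraries, whereas the 5 B cell markers summed to 104 CPM in cells from MARCH1-/- hosts and 22.2 CPM in cells from WT hosts, nearly all of it Ighm. The CPM of the median gene (6762 genes with at least 50 UMIs) was higher in the MARCH1-/- host library by 0.25 on the log2 scale. Genes whose symbols start with Rps or Rpl and a digit, mostly ribosomal protein genes, held 20.7% of UMIs there and 26.0% in the WT host library. Host ratios are therefore given as log2 of MARCH1-/- host over WT host relative to that median gene, and past the fold means at least 1.5-fold either way. The kit counts 1 tag near the 3' end of each captured molecule and the counts were not divided by length, so levels are compared between libraries or cells and not between chains.

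Itgb7 was the chain that differed most clearly by host. It gave 308 CPM (282 to 337) in cells from MARCH1-/- hosts and 151 CPM (136 to 166) in cells from WT hosts, from 486 and 387 UMIs. Its relative log2 ratio was 0.78 (0.59 to 0.98), which made it the 1 of 8 counted chains past the fold on the higher side, where 12.6% of all genes lay. On the lower side there was no chain past the fold, where 15.2% of all genes lay. A count of 1 in 8 is near the 12.6% of genes at large, so the number of chains past the fold is not a result about integrins as a group. Of the 8 counted chains 4 lay above the median gene and 4 below it, and their median relative ratio was 0.01. Itgb7 RNA was spread over many cells: 128 of 156 cells from MARCH1-/- hosts had an Itgb7 UMI (82.1%, 75.1 to 87.7, exact binomial), against 178 of 352 cells from WT hosts (50.6%, 45.2 to 55.9). With every cell thinned to 1000 UMIs, which left out 0 cells from MARCH1-/- hosts and 11 from WT hosts, 26.3% of cells from MARCH1-/- hosts and 12.6% of cells from WT hosts kept one. The median cell held 250 CPM of Itgb7 in the MARCH1-/- host library and 51.6 CPM in the WT host library, and the 5 cells with most Itgb7 UMIs held 14.0% and 10.3% of them. As 50.6% of WT host cells had an Itgb7 UMI, the WT host median lies at the edge of detection. The gap between these medians therefore depends on depth and does not measure the fold.

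**Figure D1:**
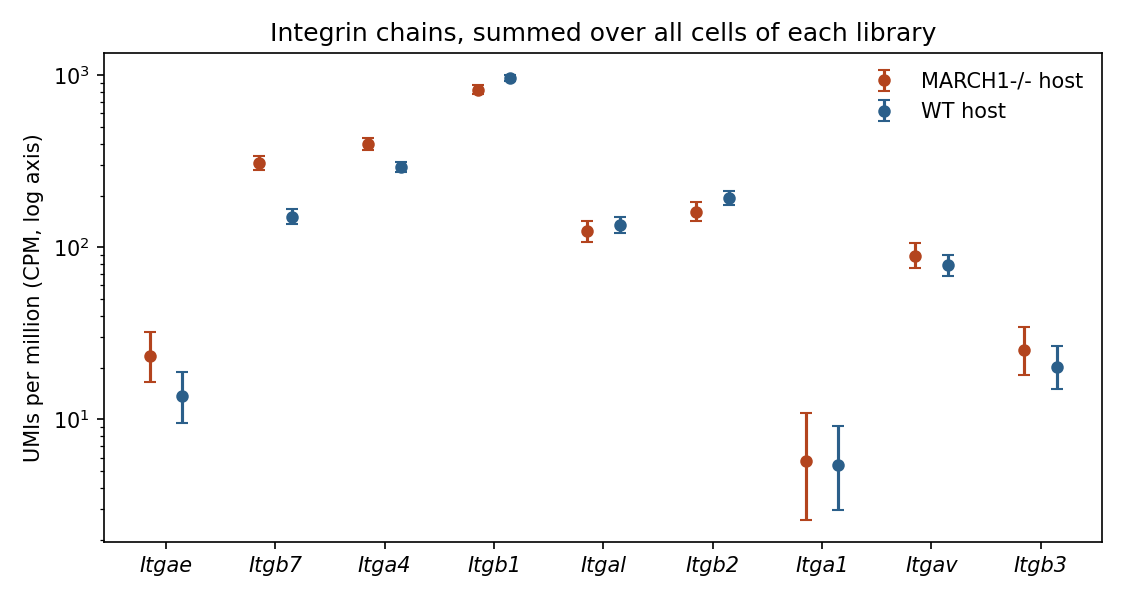
Level of each of the 9 integrin chains (CPM, log scale, summed over cells) in cells from MARCH1-/- hosts and WT hosts, 1 library each, with exact Poisson 95% intervals as bars. The intervals of Itgb7 (308 and 151 CPM) do not overlap, while those of Itga1 (5.71 and 5.45 CPM) cover nearly the same range.

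Values that could move with Itgb7 were read beside it. Cells with a B cell marker UMI were 44 of 156 from MARCH1-/- hosts and 27 of 352 from WT hosts, and without them Itgb7 gave 264 and 139 CPM, a relative ratio of 0.65. Without Foxp3-positive cells the relative ratio was 0.82 (283 and 135 CPM). Barcodes under 100 UMIs, which hold mostly RNA free of cells, had Itgb7 at 236 CPM in the MARCH1-/- host library and 146 CPM in the WT host library. If every type 2 cytokine UMI in Foxp3-positive cells (0 and 26 UMIs) had been free RNA, at most 7.03% and 15.8% of a cell's UMIs were free (upper end of the exact Poisson interval), which allows at most 16.6 and 23.0 CPM of the Itgb7 levels. That bound was chosen after the values had been seen, because markers of cell types absent from the sort gave too few UMIs for an estimate.

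Itgb7 (chromosome 15, minus strand, 102215995 to 102231944, GRCm38) and its possible partners Itga4 (chromosome 2, plus strand, 79255426 to 79333123) and Itgb1 (chromosome 8, plus strand, 128685654 to 128733200) are the chains on which the results turn, and their promoter windows are shown because Klf2, a zinc-finger factor of resting T cells known from mouse B cells to affect beta 7, was also past the fold (described with the homing genes). The windows are RefSeq's, build GRCm38.p6, 250 bases before to 50 after the start, read 5' to 3' on the gene's strand: chr15:102231886-102232185 for Itgb7, chr2:79255176-79255475 for Itga4 and chr8:128685404-128685703 for Itgb1. RefSeq windows were found for 5 of the 9 chains, the other matched chains being Itga1 and Itgav. Capitals mark CACCC or its reverse complement GGGTG, the core of the boxes that KLF factors bind.
Itgb7: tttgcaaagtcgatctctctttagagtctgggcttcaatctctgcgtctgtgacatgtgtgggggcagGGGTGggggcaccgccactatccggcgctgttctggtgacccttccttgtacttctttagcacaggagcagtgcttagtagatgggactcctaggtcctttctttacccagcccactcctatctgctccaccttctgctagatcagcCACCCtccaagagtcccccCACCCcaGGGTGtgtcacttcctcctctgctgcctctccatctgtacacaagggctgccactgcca
Itga4: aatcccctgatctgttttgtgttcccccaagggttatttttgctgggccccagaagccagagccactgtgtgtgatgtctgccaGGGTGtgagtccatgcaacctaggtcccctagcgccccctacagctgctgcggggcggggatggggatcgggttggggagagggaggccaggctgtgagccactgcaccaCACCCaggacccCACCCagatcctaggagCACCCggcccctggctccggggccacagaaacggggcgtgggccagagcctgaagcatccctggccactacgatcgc
Itgb1: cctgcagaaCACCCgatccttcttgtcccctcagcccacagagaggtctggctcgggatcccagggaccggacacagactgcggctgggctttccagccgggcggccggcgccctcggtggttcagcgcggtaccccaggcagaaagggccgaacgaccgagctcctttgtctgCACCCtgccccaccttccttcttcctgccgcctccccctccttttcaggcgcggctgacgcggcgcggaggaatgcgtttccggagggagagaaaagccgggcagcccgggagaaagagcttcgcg
The Itgb7 and Itga4 windows each held 4 matches and the Itgb1 window held 2. At least 1 match lay in 57.5% of 32851 windows of this length and at least 4 in 3.1%, so 1 match is common and 4 are uncommon. The Itga1 window held 2 matches and the Itgav window 1. Itga4, with as many matches as Itgb7, had a relative host ratio of 0.19. Whether matches go with host ratios was not tested. The RUNX core TGTGGT and its reverse complement ACCACA, searched in the same windows, lay in 16.8% of windows: 1 match in Itga4, which shares 2 bases with a CACCC match, and 0 in Itgb7 and Itgb1. A match describes these letters and shows no binding.

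Over all cells at full depth the remaining chains lay closer to the median gene. Itga4, the alpha chain shared by the beta 1 and beta 7 receptors, gave 398 CPM (367 to 430) in cells from MARCH1-/- hosts and 293 CPM (272 to 315) in cells from WT hosts, a relative ratio of 0.19 (0.04 to 0.35). Itgb1, the common beta chain, gave 826 CPM (781 to 872) and 961 CPM (924 to 1000), a relative ratio of -0.47 (-0.57 to -0.37). Both chains of LFA-1 were also below the median gene. Itgal gave 124 CPM from MARCH1-/- hosts and 134 CPM from WT hosts (relative -0.37, -0.63 to -0.11), and Itgb2 gave 161 and 193 CPM (relative -0.51, -0.74 to -0.29). Itgav, which pairs with either beta 1 or beta 3, gave 89.5 CPM from MARCH1-/- hosts and 78.6 CPM from WT hosts (relative -0.06, -0.38 to 0.25). Itgb3 gave 25.4 and 20.2 CPM (relative 0.08, -0.56 to 0.70), so the intervals of these 2 chains span the median gene. Itgae lay just inside the limit on the higher side: 23.5 CPM (16.5 to 32.4) from MARCH1-/- hosts and 13.6 CPM (9.48 to 18.9) from WT hosts, from 37 and 35 UMIs, with a relative ratio of 0.53 (-0.17 to 1.24). Over all cells, 5 cells held 67.6% of the Itgae UMIs from MARCH1-/- hosts and 5 held 57.1% of those from WT hosts. Without cells with a Mki67 or Top2a UMI, Itgae was at 1.58 (0.45 to 2.77) and Itgb3 at 1.07 (0.09 to 2.06), beside 0.99 for Itgb7. There Itgae rests on 18 and 12 UMIs and Itgb3 on 20 and 19. In thinned cells Itgae and Itgb3 were at 1.28 and 1.24, from 9 and 7 Itgae UMIs and 5 and 4 Itgb3 UMIs, beside 0.98 for Itgb7, and Itgb2 was at 0.01. Itga1 had 9 and 14 UMIs, under the 50 needed to be counted. In GRCm38 these chains lie on chromosome 7 from 127296260 to 127335138 (Itgal), chromosome 10 from 77530252 to 77565708 (Itgb2), chromosome 2 from 83724397 to 83806916 (Itgav), chromosome 11 from 104608000 to 104670476 (Itgb3), chromosome 11 from 73090583 to 73147446 (Itgae) and chromosome 13 from 114953096 to 115101964 (Itga1, minus strand, the others plus).

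**Figure D2:**
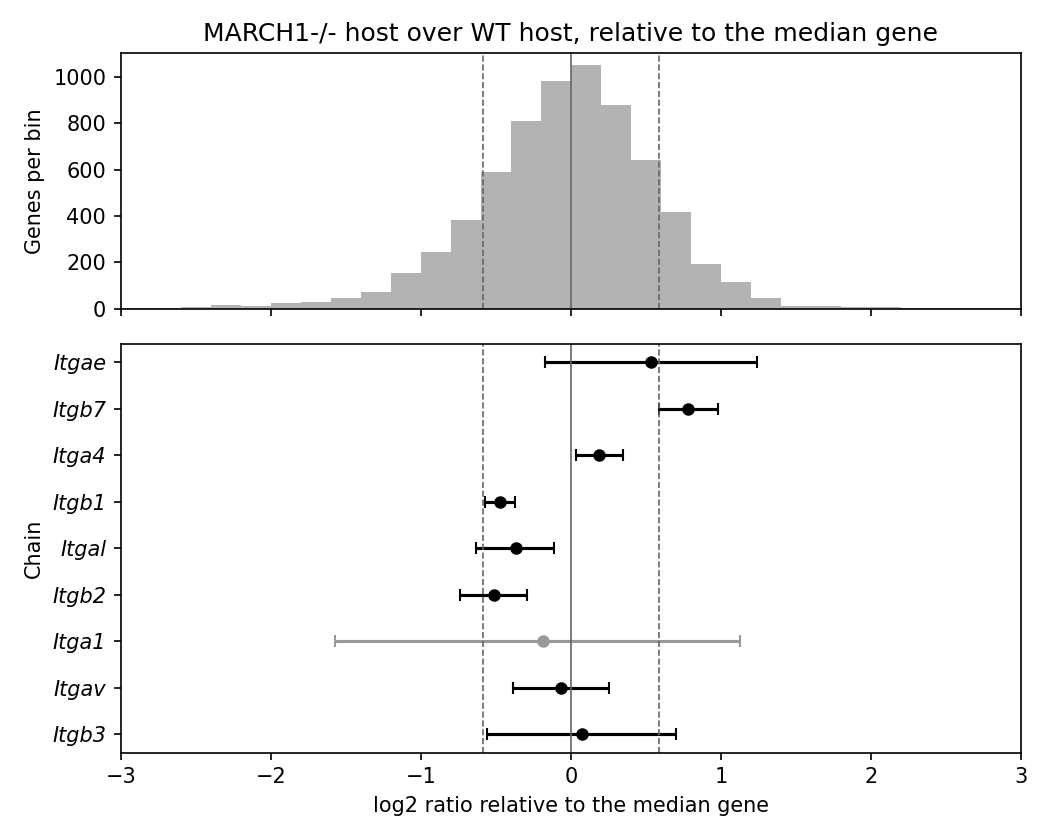
Histogram of the relative log2 ratio, MARCH1-/- host over WT host, for 6762 genes with at least 50 UMIs (x axis limited to 3 either way), with the 9 chains as points and their counting intervals; dashed lines mark 1.5-fold, and the grey point is Itga1, which was not counted. Itgb7 (0.78) is the chain beyond the right line, and Itgae (0.53) lies just short of it.

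The level of Itgb7 set against Itgb1, both from the same cells, differed between hosts. There were 37.4 Itgb7 UMIs per 100 Itgb1 UMIs (33.6 to 41.5) in cells from MARCH1-/- hosts and 15.7 (14.0 to 17.4) in cells from WT hosts. A ratio of this kind shows unequal change of the 2 chains and not which of them changed. By helper-marker class, cells were grouped by at least 1 UMI of type 2 cytokines (Il4, Il5, Il13), of ST2 (Il1rl1, the IL-33 receptor), of Foxp3 (the regulatory T cell factor) or of type 1 genes (Ifng, Tbx21). A class of cycling cells (Mki67, Top2a) was read as well. The classes overlap, and deeper cells are more often positive. Itgb7 per 100 Itgb1 was 33.3 in MARCH1-/- host cells and 14.9 in WT host cells with type 2 cytokines, 38.3 and 16.9 with ST2, and 28.9 and 7.34 with type 1 genes. The intervals of the hosts overlapped in Foxp3-positive cells (103, 77.5 to 137, against 86.4, 64.3 to 116).

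**Figure D3:**
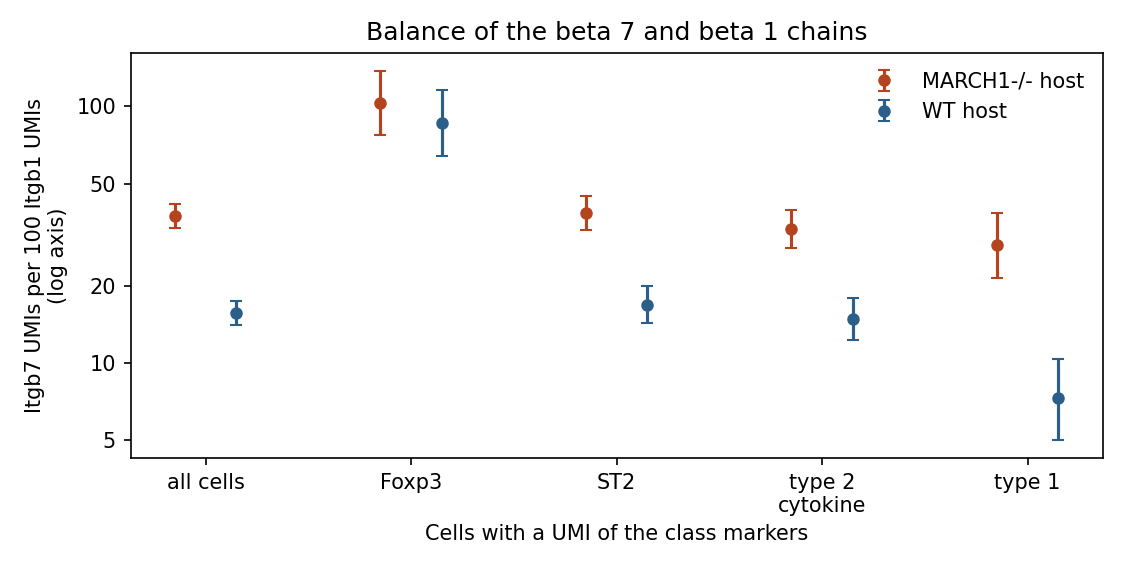
Itgb7 UMIs per 100 Itgb1 UMIs in all cells and in each helper-marker class, MARCH1-/- host cells left of WT host cells, with 95% counting intervals. Foxp3-positive cells have the highest balance in both libraries (103 and 86.4), and in type 1 cells the hosts are at 28.9 and 7.34.

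Within each of these 4 classes Itgb7 was higher in the MARCH1-/- host library. The levels were 256 CPM in MARCH1-/- host cells and 110 CPM in WT host cells with type 2 cytokines, 349 and 145 CPM with ST2, 461 and 247 CPM with Foxp3, and 342 and 70.5 CPM with type 1 genes. Relative to the median gene of the class, the log2 ratio was 2.17 (1.55 to 2.82) in type 1 cells, 1.03 (0.74 to 1.33) in ST2-positive cells, 1.02 (0.69 to 1.35) in type 2 cytokine cells and 0.69 (0.27 to 1.12) in Foxp3-positive cells. The type 1 class held 18 cells from MARCH1-/- hosts and 59 from WT hosts, and 5 of those cells held 55.6% of the MARCH1-/- host class's Itgb7 UMIs and 41.2% of the WT host class's. Whether these class ratios differ from each other was not tested.

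Itgb1, lower in the MARCH1-/- host library over all cells, was near the median gene in 3 of the 4 classes. It gave 768 CPM in MARCH1-/- host cells and 739 CPM in WT host cells with type 2 cytokines, 911 and 860 CPM with ST2, and 1184 and 959 CPM with type 1 genes, with relative ratios of -0.15 (-0.30 to 0.01), -0.15 (-0.29 to -0.0024) and 0.20 (-0.04 to 0.43). Among type 1 cells 5 cells held 75.7% of the Itgb1 UMIs from MARCH1-/- hosts and 33.3% of those from WT hosts. In type 1 cells without Foxp3 (14 and 57 cells) the relative ratio was 0.39 (0.15 to 0.63), off the median gene. With Foxp3 Itgb1 gave 448 CPM in MARCH1-/- host cells and 286 CPM in WT host cells (relative 0.44, 0.03 to 0.85), opposite in sign to its ratio over all cells. Of these Foxp3-positive cells 14 of 24 and 15 of 46 had ST2 as well. In them the relative ratio was 1.07 (0.36 to 1.79), from 45 and 29 Itgb1 UMIs. In those without ST2 it was 0.21 (-0.32 to 0.73). In the whole Foxp3 class 5 cells held 76.2% and 61.2% of the Itgb1 UMIs. Itgb1 was below the median gene both in cycling cells (818 and 925 CPM, -0.42, -0.53 to -0.30) and in cells with no cycling marker (848 and 1024 CPM, -0.50, -0.69 to -0.32). Whether these differences between classes exceed replicate error was not tested.

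**Figure D4:**
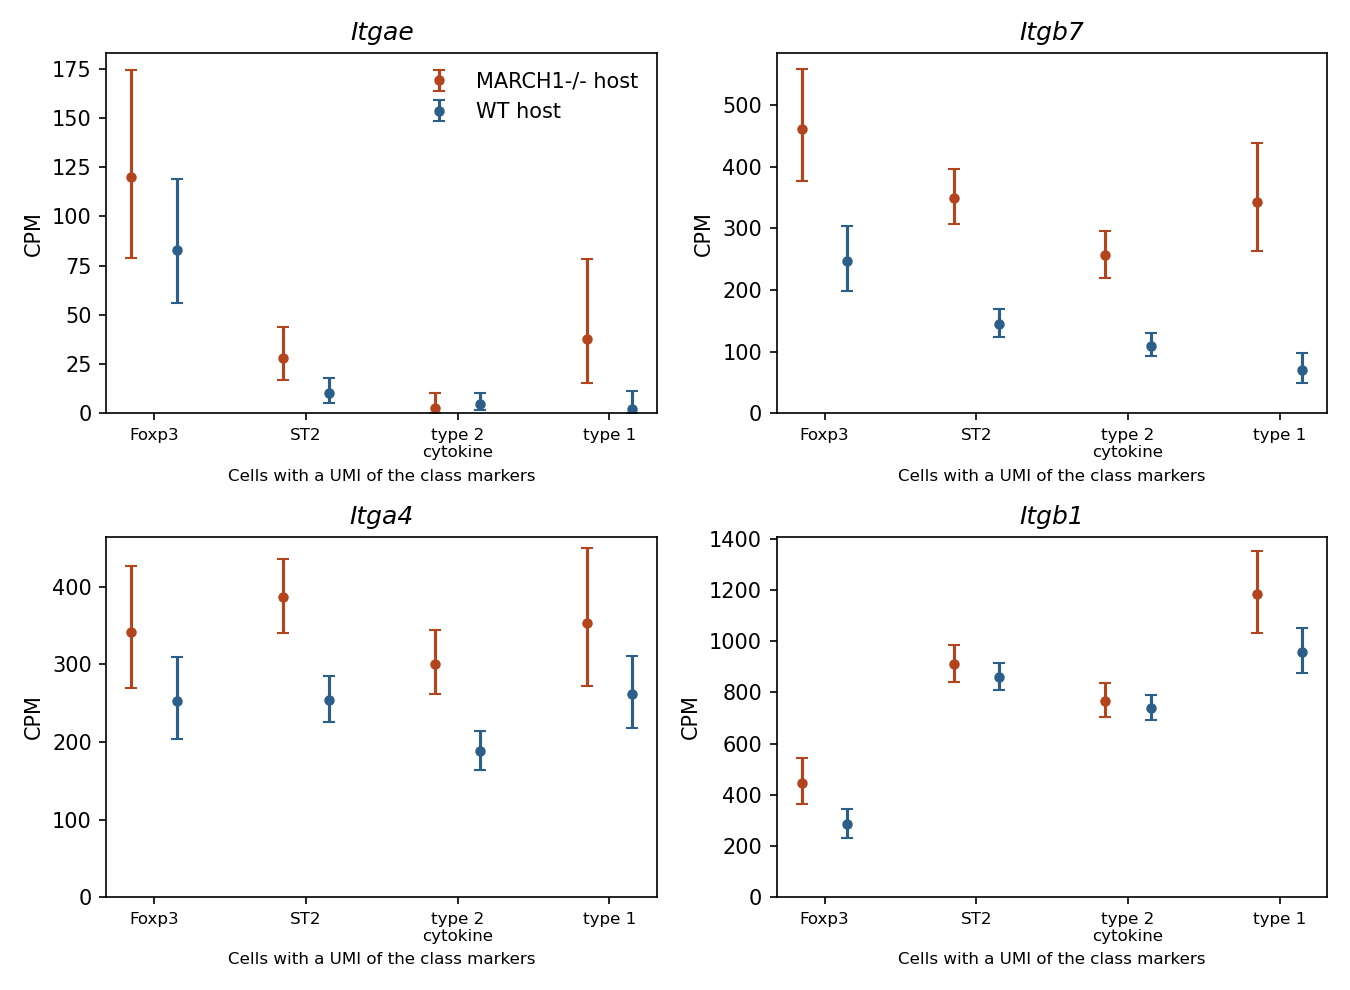
Level (CPM, linear axis from 0) of Itgae, Itgb7, Itga4 and Itgb1 in 4 overlapping helper-marker classes, MARCH1-/- host left of WT host, 1 library each, with exact Poisson 95% intervals as bars. Itgae is highest in Foxp3-positive cells (120 and 83.2 CPM), where Itgb1 is lowest (448 and 286 CPM).

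Set against the other cells of its own library, 7 of the 40 chain-by-class values were past the fold in the same direction in both libraries, and 3 of them concern Foxp3-positive cells (24 from MARCH1-/- hosts, 46 from WT hosts). The 40 values are 8 counted chains in 5 classes, cycling cells included. By class and direction between 2.35% and 9.46% of all genes passed in both libraries, and the count of 7 was not tested against these shares. No chain passed on the higher side in type 2 cytokine, type 1 or cycling cells, where 3.53%, 2.65% and 9.46% of all genes did, and none on the lower side in ST2-positive or cycling cells, where 3.4% and 4.64% did. In Foxp3-positive cells Itgae, the CD103 chain that regulatory T cells of mouse tissues are known to carry, gave 120 CPM (78.9 to 174) in MARCH1-/- host cells and 83.2 CPM (56.1 to 119) in WT host cells, against 7.41 and 2.26 CPM in the other cells of those libraries. The log2 ratios of 4.01 and 5.20 are far past the fold, which 3.3% of all genes passed on the higher side. Of the 37 and 35 Itgae UMIs, 27 and 30 were in Foxp3-positive cells, in 9 of 24 cells (37.5%, 18.8 to 59.4) from MARCH1-/- hosts and 11 of 46 (23.9%, 12.6 to 38.8) from WT hosts. Free RNA bounds Itgae in a cell at 0.86 CPM in the MARCH1-/- host library and 2.18 CPM in the WT host library, which leaves the WT host cells without Foxp3 near that bound.

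No Itgae UMI was detected in ST2-positive cells without Foxp3. There were 0 Itgae UMIs in 55 such cells from MARCH1-/- hosts (cells with a UMI up to 6.49%, exact binomial) and 0 in 106 from WT hosts (up to 3.42%). These limits are on cells with a captured UMI and not on cells with Itgae RNA. With Foxp3 as well, 6 of 14 and 4 of 15 cells had Itgae. All Foxp3-negative cells, ST2-positive or not, held 10 Itgae UMIs in 132 cells from MARCH1-/- hosts and 5 in 306 from WT hosts. Itgae UMIs were thus rare in Foxp3-negative cells at large, and whether the ST2-positive ones differ from the rest was not tested. Itgae was lower in type 2 cytokine cells (log2 ratios -3.82 and -2.16, from 2 and 6 UMIs) where 4.24% of all genes passed on the lower side. Of the type 2 cytokine cells 0 from MARCH1-/- hosts and 6 from WT hosts were Foxp3-positive, so the other cells of that comparison hold the remaining Foxp3-positive cells and with them most Itgae UMIs. Type 2 cytokine cells had Itgae at 2.85 CPM and Foxp3-negative cells at 7.41 CPM in the MARCH1-/- host library, and at 4.86 and 2.26 CPM in the WT host library, so this value is not separate from that of Foxp3-positive cells.

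Itgb7 was also higher in Foxp3-positive cells: 461 CPM (377 to 559) in MARCH1-/- host cells and 247 CPM (198 to 304) in WT host cells, against 283 and 135 CPM in the other cells (log2 ratios 0.70 and 0.87). In the MARCH1-/- host library this fell short of the fold when the marker was called in thinned cells (0.22) and without cells with a Mki67 or Top2a UMI (0.36). Itgb1 was lower there, at 448 CPM in MARCH1-/- host cells and 286 CPM in WT host cells, against 889 and 1072 CPM in the other cells (log2 ratios -0.99 and -1.91), where 5.8% of all genes passed on the lower side. Its median Foxp3-positive cell held 207 CPM from MARCH1-/- hosts and 0 CPM from WT hosts, and 5 cells held 76.2% and 61.2% of the Itgb1 UMIs of the class. Foxp3-positive cells thus had more Itgae and Itgb7 RNA and less Itgb1 RNA than other cells in both libraries.

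Itga4 was lower in type 2 cytokine cells, at 300 CPM (261 to 344) in MARCH1-/- host cells and 188 CPM (164 to 214) in WT host cells, against 477 and 390 CPM in the other cells (log2 ratios -0.67 and -1.05). Without cells with a cycling marker UMI the MARCH1-/- host value was -0.48, short of the fold. Over the 4 helper-marker classes its level was lowest with type 2 cytokines in both libraries. ST2-positive (386 CPM in MARCH1-/- host cells and 254 CPM in WT host cells), type 1 (353 and 261 CPM) and Foxp3-positive cells (341 and 252 CPM) stood above them, in an order that differed between the libraries. Itgb3 was higher in ST2-positive cells, at 32.4 CPM (20.3 to 49.1) in MARCH1-/- host cells and 27.2 CPM (18.6 to 38.4) in WT host cells, against 20.1 and 14.3 CPM in the other cells (log2 ratios 0.69 and 0.92), where 2.35% of all genes passed on the higher side. It rests on 22 and 32 UMIs, and the MARCH1-/- host value was 0.49 when the marker was called in thinned cells and 0.46 without cycling-marker cells. The lower Itgb3 of type 1 cells (-2.37 and -2.53, where 2.81% of all genes passed on the lower side) rests on 1 and 2 UMIs, and the MARCH1-/- host value was 0.38 when 2 marker UMIs were asked for.

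By the main class rule, Itgal, Itgb2 and Itgav were past the fold in both libraries in none of the 5 classes. Itgal ran between 93.1 and 134 CPM over the 4 helper-marker classes in MARCH1-/- host cells and between 113 and 131 CPM in WT host cells. Itgb2 ran between 151 and 174 CPM in MARCH1-/- host cells and between 168 and 226 CPM in WT host cells. Itgav was 121 CPM in ST2-positive MARCH1-/- host cells and 76.5 CPM in ST2-positive WT host cells, and its direction against the other cells differed between libraries (0.88 and -0.07). With markers called in thinned cells, Itgav was past the fold in both libraries with ST2 (1.15 and 0.70). It also was with Foxp3 (0.67 and 1.55), from 12 cells each. Without cycling-marker cells it was so with Foxp3 (1.21 and 0.75) and not with ST2 (1.47 and 0.09). With 2 marker UMIs asked for, Itgav was short of the fold with ST2 (0.21 and 0.22) and with Foxp3 (0.0028 and 0.46). Itga1, the collagen receptor chain of tissue-resident T cells, was too rare to be counted: 9 of its 14 UMIs from WT hosts lay in type 1 cells (18.6 CPM, 8.53 to 35.4, in 6 of 59 cells), against 2 of 9 UMIs from MARCH1-/- hosts (10.9 CPM, 1.32 to 39.2, in 2 of 18 cells).

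Pairs of chains were read within single cells, each thinned to 1000 UMIs, as the share of cells with the beta chain among cells with and without the alpha chain. Of 14 values (7 pairs in 2 libraries) 2 had a difference whose interval lay above 0 and 1 had one below 0, all in WT host cells. In cells thinned to 2000 UMIs instead, 3 lay above 0 and 1 below, in both libraries. Of the higher values, that of Itga1 with Itgb1 rests on 4 Itga1-positive cells, all with Itgb1. For Itga4 and Itgb7 in MARCH1-/- host cells, 30.2% of 43 Itga4-positive cells had Itgb7 and 24.8% of 113 others did, a difference of 5.45 points (-9.07 to 21.9). In WT host cells 20.3% of 69 and 10.7% of 272 did, a difference of 9.63 points (0.75 to 21.0). At 2000 UMIs these differences were 3.65 points (-11.8 to 18.9) in MARCH1-/- host cells and 12.1 points (2.48 to 22.1) in WT host cells. For Itga4 and Itgb1 the shares were 53.5% and 43.4% in MARCH1-/- host cells and 53.6% and 47.4% in WT host cells, with intervals that included 0. At 2000 UMIs the intervals lay above 0: 77.0% and 53.8% in MARCH1-/- host cells (23.3 points, 8.23 to 36.8), and 69.5% and 58.2% in WT host cells (11.3 points, 0.37 to 21.4). Without thinning, Itgb1 was at 897 CPM in Itga4-positive cells and 406 CPM in the others from MARCH1-/- hosts, and at 1054 and 686 CPM from WT hosts. In those unthinned cells Itga4-positive cells were also deeper, with medians of 8429 and 4682 UMIs from MARCH1-/- hosts and 7488.5 and 4651 UMIs from WT hosts.

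For Itgav and Itgb1 the differences were below 0 at 1000 UMIs. Among cells with Itgav, 38.5% of 13 had Itgb1 in the MARCH1-/- host library against 46.9% of 143 others (-8.39 points, -30.7 to 18.8), and 29.2% of 24 in the WT host library against 50.2% of 317 others (-21.0 points, -36.3 to -0.26). At 2000 UMIs the difference was -22.6 points (-41.5 to -2.35) in MARCH1-/- host cells and -0.83 points (-15.5 to 12.5) in WT host cells, and without thinning it was -11.4 points (-23.5 to 0.10) and 2.39 points (-6.91 to 10.7). Which library had an interval off 0 for this difference of shares thus changed with depth. The summed Itgb1 level was lower in Itgav-positive cells in both libraries. Without thinning it was 602 CPM against 1017 CPM from MARCH1-/- hosts (log2 ratio -0.76, -0.93 to -0.59). From WT hosts it was 793 against 1077 CPM (-0.44, -0.56 to -0.32). At 2000 UMIs the log2 ratios were -1.04 (-1.68 to -0.46) and -0.35 (-0.71 to -0.02), and at 1000 UMIs both intervals included 0. The LFA-1 chains showed 26.1% of 23 Itgal-positive cells with Itgb2 against 16.5% of 133 in MARCH1-/- host cells and 14.0% of 50 against 14.1% of 291 in WT host cells. Itgae-positive cells numbered 7 and 6 after thinning and Itga1-positive cells 1 and 4, too few to read a pair. Itgb3-positive cells numbered 5 and 4, also too few; without thinning, 12 of 156 cells from MARCH1-/- hosts and 16 of 352 from WT hosts had both Itgav and Itgb3.

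**Figure D5:**
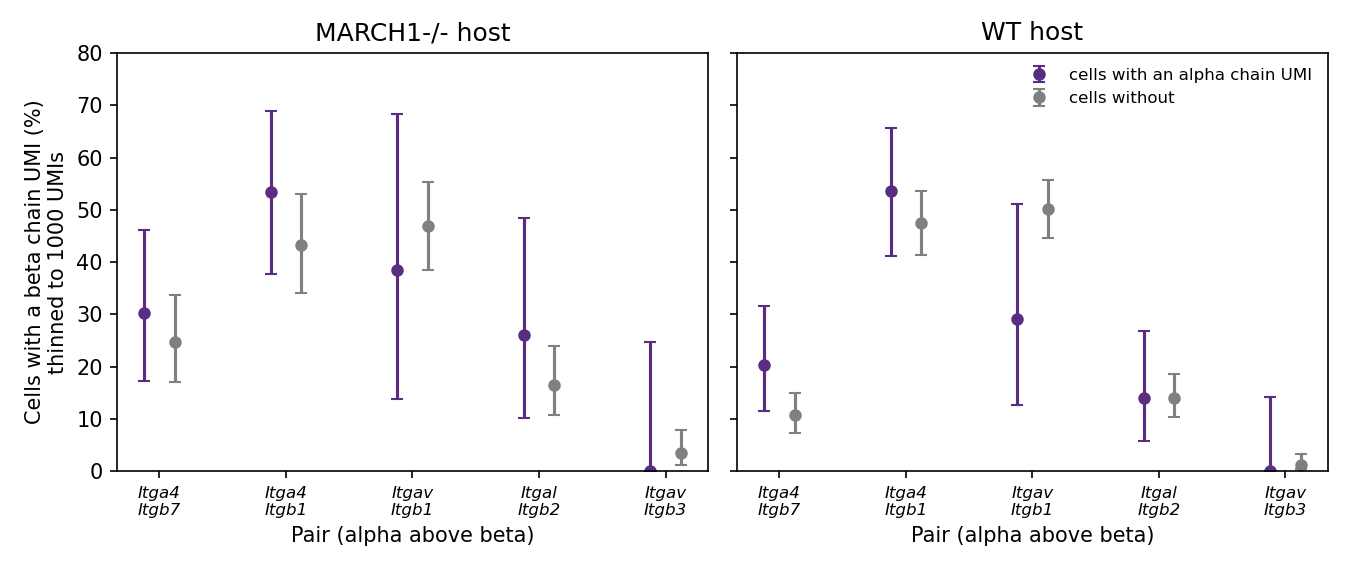
Share of cells with a beta chain UMI among cells with and without the alpha chain, MARCH1-/- host and WT host, after thinning to 1000 UMIs, with exact binomial intervals, for the 5 pairs with at least 10 alpha-positive cells in each library (Itgae with Itgb7 and Itga1 with Itgb1 are not drawn). At this depth the gaps with an interval off 0 are in WT host cells, Itga4 with Itgb7 (20.3% and 10.7%) and Itgav with Itgb1 (29.2% and 50.2%), and at 2000 UMIs the second of these was -0.83 points.

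Other genes of integrin biology were read from lists. Of 17 other integrin chains 2 were counted, Itga6 (24.1 CPM in MARCH1-/- host cells, 14.8 CPM in WT host cells, relative 0.45) and Itga2 (16.5 and 9.72 CPM, relative 0.51), and neither passed the fold. Of 26 genes of integrin activation and its adaptors 25 were in the table, 23 were counted, and 3 were past the fold on each side, near the shares of all genes (12.6% higher, 15.2% lower), with a median of -0.06. These counts are therefore no result about the list. The higher ones were Rap1a (384 and 215 CPM, relative 0.59), the GTPase that switches integrins on, Apbb1ip (165 and 83.2 CPM, 0.74), its talin-recruiting partner RIAM, and Rasgrp2 (159 and 76.2 CPM, 0.81), a Rap1 exchange factor. The lower ones were Cyth1 (66.6 and 103 CPM, -0.88), a regulator of beta 2, Ptk2b (64.1 and 84.4 CPM, -0.65), a kinase at adhesions, and Pxn (12.1 and 16.7 CPM, -0.72), an adhesion scaffold. Talin (Tln1, 515 and 545 CPM, -0.33) and Rap1b (561 and 546 CPM, -0.21) were not past it, nor were Cytip (-0.02), Fyb (0.31) and Skap1 (0.36).

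Of 18 genes of the TGF-beta pathway, whose signal is known to raise CD103 on T cells, 12 were counted, 0 were past the fold on the higher side and 5 on the lower, with a median of -0.56, beside 12.6% higher and 15.2% lower over all genes. The 5 were Tgfb1 (163 CPM in MARCH1-/- host cells, 231 CPM in WT host cells, relative -0.75), Tgfbr1 (14.6 and 21.8 CPM, -0.83), the repressors Ski (55.2 and 73.1 CPM, -0.66) and Skil (119 and 173 CPM, -0.80), and Runx3 (70.5 and 92.2 CPM, -0.64), a factor of CD103 expression; Runx1 (-0.27) and Smad7 (0.37) were not. Of 14 residency and homing genes 11 were counted and 2 were higher past the fold: Ccr7 (67.9 and 10.9 CPM, relative 2.39) and Klf2 (294 and 102 CPM, 1.28), with Cd44 (173 and 233 CPM, -0.68) lower and a median of 0.13, beside the same shares of all genes. Rgs1, Cd69, Bhlhe40, Selplg and Cxcr6, the most counted of that list, lay between -0.41 and 0.31. Of 16 ligand genes 3 were counted and none was past the fold: Icam1 (34.3 and 32.7 CPM), Icam2 (19.0 and 14.0 CPM) and Jaml (14.6 and 14.8 CPM).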

How the data were processed

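RNA of sorted single CD4 T cells was captured with the 10x 3' kit v3.1, 1 library per host type, per the labels' protocols. The deposited files hold raw UMI counts per gene and barcode for all barcodes, with no normalization; the submitters' processing notes name Cell Ranger 3.1.0 and mm10, whereas the matrix headers name version 4, and the sources used here do not give the annotation. Cells were kept by the 3 limits given in the text. Counts were summed over cells and scaled to a total of 1000000 (CPM); intervals were exact Poisson for levels, conditional binomial for ratios, Clopper-Pearson for shares and Newcombe for differences of shares. The ratio code was tested on simulated data. With 1 library per group no test was made. Doublets were kept, and 5 and 5 that Scrublet (scanpy 1.11.5, expected rate 0.05) marked were left out in an alternative only. Thinning drew 1000 UMIs per cell once (seed 1). Genes that overlap a chain had UMIs of their own: Haspin in Itgae (21 in the MARCH1-/- host library and 30 in the WT host library, beside 37 and 35 of Itgae), Cerkl in Itga4 (19 and 15), Pelo in Itga1 (20 and 16, beside 9 and 14 of Itga1) and Gm13684 in Itgav (3 and 17). How the counting assigned reads between them was not checked. Gene coordinates are GENCODE's for GRCm38, the assembly of mm10. The text names all 9 chains, up to 5 genes of each list with most UMIs plus those past the fold. Results that rest on certain items, among them 2 planned cell classes, genes of similar profile and 1 gene of the homing list, are not reported here. The members and lists were chosen with earlier results of these data known. Alternatives changed the cell filters, depth, doublets, cycling cells, scaling, gene filter and class rule. Python 3.11.15, numpy 2.4.6, scipy 1.17.1 and pandas 2.3.3 were used.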

Additional observations from a re-analysis of the deposited data

Results flagged for a closer look

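Barcodes over the mitochondrial limit, 25 from MARCH1-/- hosts and 72 from WT hosts, were outside every comparison, and they held 110 and 366 UMIs of the 9 chains. In them Itgb7 gave 704 CPM (436 to 1076) in the MARCH1-/- host library and 478 CPM (336 to 658) in the WT host library. Their median depth was 1093 and 825 UMIs.

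Itgae in type 1 cells pointed in opposite directions in the 2 libraries: its log2 ratio to the other cells was 0.82 in the MARCH1-/- host library and -2.97 in the WT host library, from 7 UMIs and 1 UMI. The difference was not tested. Without Foxp3-positive cells the type 1 cells held 2 Itgae UMIs in 14 cells from MARCH1-/- hosts and 0 in 57 from WT hosts.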

How the results depend on the processing

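Of 129 values under alternatives, 112 moved by less than counting error or kept their count within 1.5 times, 17 moved and 0 reversed. Only a chain past the fold in the main setting could be called reversed. That was Itgb7 alone, with 10 of these values, so the 0 says nothing of the other chains. The 112 include the values of CPM without ribosomal protein and mitochondrial genes. That alternative only rescales each library's total, which cancels in a ratio relative to the median gene, so its values could not move. Chains not past the fold did cross the median gene: Itga4 in 1 of 10 alternatives (-0.02), Itgb2 in 1 (0.01), Itgb3 in 1 (-0.10), Itga1 in 2 and Itgav in 4. The number of chains higher past the fold, 1, became 3 in thinned cells and 3 without cells with a Mki67 or Top2a UMI (Itgae, Itgb7 and Itgb3), 2 with ratios not taken relative to the median gene, and 2 without Foxp3-positive cells, an alternative chosen after seeing the data, as was leaving out B cell marker cells. Itgb7 was past the fold in 10 of 10 alternatives for its ratio (0.65 to 0.99), of which that 1 rescaling could not move it. The number of chains lower past the fold was 0 in each, but without B cell marker cells Itgb1 lay only just inside the limit (-0.58489). Alpha-beta pair differences with an interval above 0 numbered 5 in unthinned cells and 3 at 2000 UMIs, against 2. Chain-by-class values past the fold in both libraries numbered 9 with thinned marker calls, 7 with 2 marker UMIs and 6 without cycling cells, against 7. These counts hide changes in which values passed. With thinned marker calls, Itgb1 and Itgb3 in type 2 cytokine cells and Itgae in ST2-positive cells were newly lower. Itgav was newly higher in ST2-positive and Foxp3-positive cells. With 2 marker UMIs, Itgae was newly lower in cycling cells (-4.83 from MARCH1-/- hosts and -1.48 from WT hosts). Without cycling cells, Itgae was newly lower in ST2-positive cells (-1.43 and -1.26). In that setting Itgb3 was newly lower (-1.73 and -0.87) and Itgav newly higher (1.21 and 0.75) in Foxp3-positive cells. The type 1 class gave no value with thinned marker calls or without cycling cells, where it fell under 10 cells in a library. No paired analysis was possible because each host type has 1 library. Depth limits Itga1, Itgae and Itgb3, with 9 to 52 UMIs per library.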
